A study of Mus musculus with 9 samples.

Results

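The lysosomal hydrolases and the vacuolar ATPase (V-ATPase) are 53 of the 19937 genes measured one by one on arrays of 3 populations of Ly6Chi CD115+ cells sorted from mouse bone marrow (BM). They are all 21 measured genes whose symbol begins with *Atp6v*, and 32 listed genes for lysosomal enzymes, their cofactors, and lysosomal membrane proteins, named one by one. For a gene with several probe sets naming it alone, the brightest on average was used. *Atp6v0c*, the gene of the main proton-carrying ring subunit, has no such probe set and was not analysed here.

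The populations were Flt3+CD11c+ (R3), Flt3+CD11c- (R2), and Flt3-CD11c- (R1) cells, with 3 arrays each. All cells came from the steady-state BM of C57Bl/6 mice, given as 8 weeks old in the labels, with no treatment and no modified allele stated. The study addressed how these Ly6C+ cells differ from each other, and calls R3 pre-DCs (precursors of dendritic cells) and R1 and R2 monocytes. One array of each population carries each of 3 label dates, so replicate numbers 1, 2, and 3 stand for the dates.

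Lysosomes break down proteins, lipids, glycans, and other material that the cell has taken up or discarded. Their hydrolases work best in acid, and the acid is made by the V-ATPase, a rotary pump whose cytosolic V1 sector splits ATP and whose membrane-bound V0 sector carries protons into the lumen. In mononuclear phagocytes this system digests phagocytosed material, while DCs are known for a more limited breakdown that preserves peptides for presentation. Many lysosomal genes carry an E-box, CACGTG, near their start, which transcription factors of the TFEB, TFE3, MITF, and TFEC family can bind.

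Of 9 DC precursor markers, R3 had 9 called higher against R2 and 9 against R1. Among them are *Flt3* and *Itgax* (CD11c), whose proteins set the gates, so that the direction of *Itgax* in both comparisons, and of *Flt3* against R1, is not independent of the sort. *Flt3* was between 10.99 and 11.09 in R3, between 7.70 and 8.02 in R2, and between 6.74 and 7.78 in R1 (log2 intensity). *Csf1r*, which encodes CD115, was at 10.63 to 10.89 in R3, 10.95 to 11.04 in R2, and 11.18 to 11.33 in R1, and the R1 level of *Flt3* overlapped that of R2. Of 7 measured monocyte markers, 4 were called lower in R3 than in R2 and 5 than in R1. Of 10 markers of mature or resident macrophages, 1 was called lower in R3 than in R2 (10%) and 2 than in R1 (20%), and 0 higher. Their summed linear level ran from 378.0 to 399.2 in R3, from 413.1 to 463.0 in R2, and from 420.8 to 485.6 in R1. The part of these macrophage markers in the results was not tested. No B cell, T and natural killer cell, or erythroid marker was called in any comparison. The R3 arrays differed among themselves in neutrophil granule genes: *Ltf* was at 8.92, 4.93, and 7.03 and *Ngp* at 10.73, 6.27, and 9.03 in R3 replicates 1, 2, and 3, against at most 5.47 and 7.48 in R2 and 5.60 and 6.50 in R1. Neither was called, and other markers of the list went the other way. Of the 8 neutrophil markers, 2 (25%), *Elane* and *Mpo*, were called lower in R3 in both comparisons, and 0 were called higher. Of all genes, 4.69% were called lower against R2 and 7.02% against R1. The summed linear level of the 8 neutrophil markers ran from 1779 to 16460 in R3, from 15490 to 20420 in R2, and from 10920 to 15410 in R1. The part of these granule genes in the results was not tested, and counts without R3 replicate 1 are given beside the main ones.

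R3 differed from both other populations in about the same number of these genes, mostly downward. Against R2, 19 of the 53 were called lower and 5 higher, where a call is an adjusted p under 0.05 (limma, Benjamini-Hochberg over all 19937 genes). This is 35.8% called lower, against 4.69% of all genes, and 9.43% called higher, against 4.85% of all genes. Against R1, 23 were called lower (43.4%, against 7.02% of all genes) and 3 higher (5.66%, against 6.49%). The median log2 fold change of the 53 was -0.09 in R3 against R2 and -0.21 in R3 against R1, where all genes had medians of -0.01 and -0.02. For the 21 V-ATPase genes the medians were -0.09 and -0.10, with 5 and 8 called lower and 0 higher, and for the other 32 genes -0.12 and -0.22, with 14 and 15 lower and 5 and 3 higher. In R2 against R1, 0 of 53 were called in either direction (0.211% of all genes were called higher and 0.181% lower). Both R3 comparisons use the same 3 R3 arrays, so they are not independent of each other. Labels do not say whether arrays of a population hold separate animals, so each p rests on array-to-array spread that may be only technical.

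**Figure D1:**
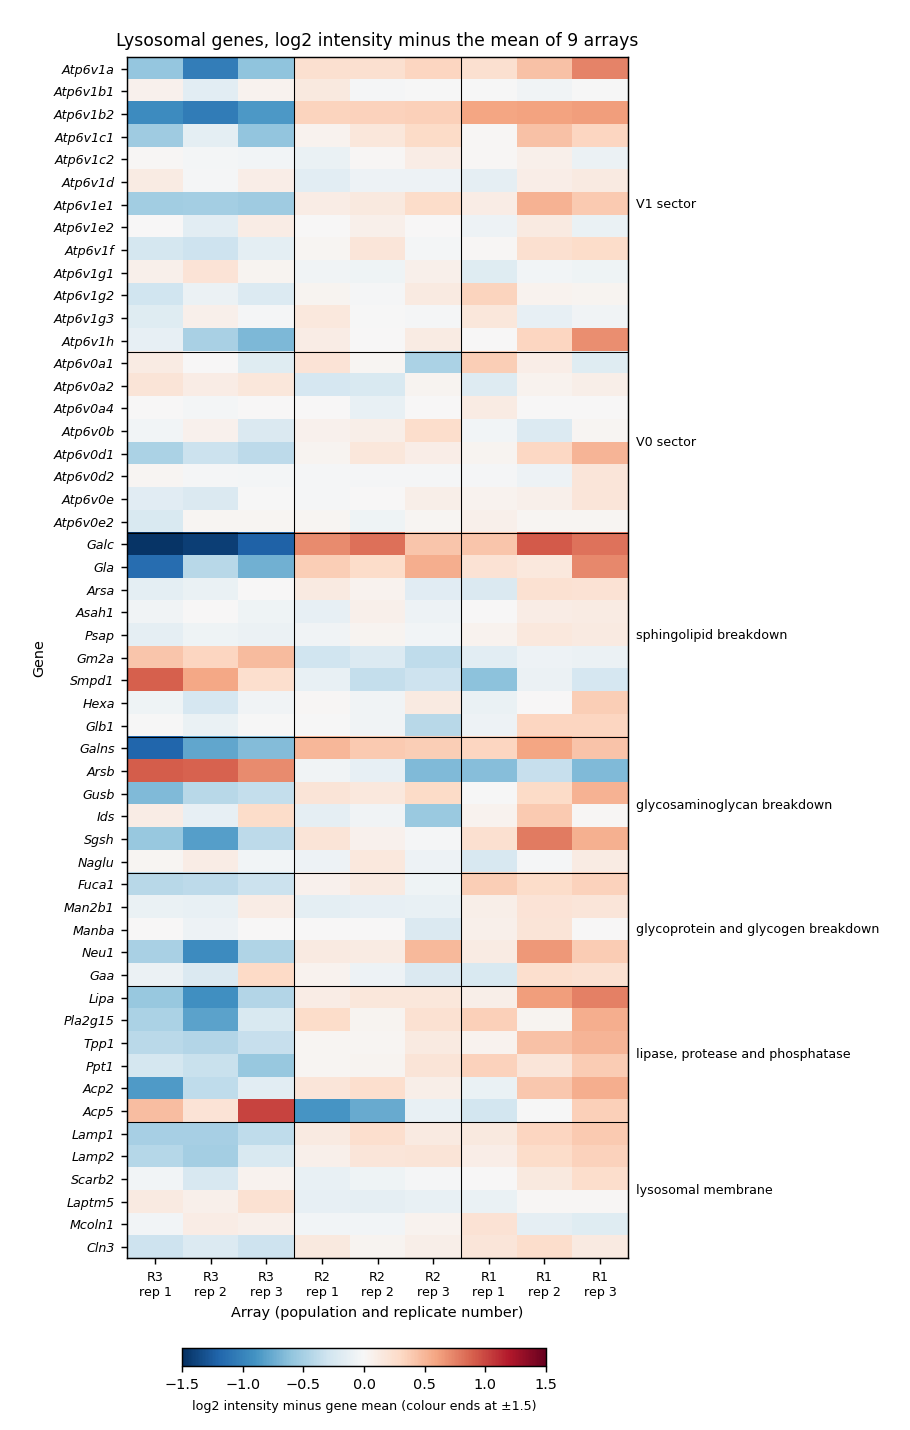
Log2 intensity of each of the 53 genes on each array, minus that gene's mean over the 9 arrays (colour, red above and blue below the mean, ends at ±1.5), with columns for R3, R2, and R1 replicates 1 to 3 and genes grouped by role. Blocks of blue in the 3 R3 columns mark the genes lower there, such as *Galc* and *Atp6v1b2*, and *Arsb*, *Smpd1*, and *Gm2a* are red in the same columns.

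All R3 arrays were below all R2 arrays in 26 members (12.2% of all genes) and above them in 8 (12.6%), and below all R1 arrays in 26 (12.9%) and above them in 6 (11.6%). Without R3 replicate 1, 13 members were called lower (3.72% of all genes in that fit) and 2 higher (3.69%) in R3 against R2, and 20 lower (5.8%) and 3 higher (4.82%) against R1. In bulk arrays, fewer cells of a type and less RNA per cell cannot be told apart, and this holds for every difference given here. At least 2-fold lower and called were 5 members in R3 against R2 (1.62% of all genes) and 8 against R1 (2.22%), and at least 2-fold higher were 2 (1.34%) and 1 (1.52%).

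Promoter windows are shown here for the 4 members with the largest changes among those with a window and for *Lamp1*, the member with the most E-boxes. Each is the RefSeq window of 250 bases before to 50 bases after the annotated gene start on GRCm38.p6, in the direction of the gene, with each CACGTG in capitals. *Lamp1* (chr8:13158911-13159210, plus strand), *Gla* (chrX:134600956-134601255, minus strand), *Atp6v1a* (chr16:44139210-44139509, minus strand), and *Galc* (chr12:98259410-98259709, minus strand) were all called lower in R3 than in both other populations. *Arsb* (chr13:93771429-93771728, plus strand) was called higher than in both.
Lamp1: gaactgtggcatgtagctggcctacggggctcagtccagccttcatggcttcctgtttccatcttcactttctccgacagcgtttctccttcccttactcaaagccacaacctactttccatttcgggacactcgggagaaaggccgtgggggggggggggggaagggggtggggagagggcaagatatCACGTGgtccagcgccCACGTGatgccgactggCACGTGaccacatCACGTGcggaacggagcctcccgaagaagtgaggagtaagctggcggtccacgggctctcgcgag
Gla: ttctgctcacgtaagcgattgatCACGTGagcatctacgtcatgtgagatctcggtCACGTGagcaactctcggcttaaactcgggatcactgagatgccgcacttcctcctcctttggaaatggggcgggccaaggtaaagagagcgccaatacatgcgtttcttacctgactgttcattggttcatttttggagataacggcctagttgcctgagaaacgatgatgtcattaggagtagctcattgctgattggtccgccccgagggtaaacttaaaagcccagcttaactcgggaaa
Atp6v1a: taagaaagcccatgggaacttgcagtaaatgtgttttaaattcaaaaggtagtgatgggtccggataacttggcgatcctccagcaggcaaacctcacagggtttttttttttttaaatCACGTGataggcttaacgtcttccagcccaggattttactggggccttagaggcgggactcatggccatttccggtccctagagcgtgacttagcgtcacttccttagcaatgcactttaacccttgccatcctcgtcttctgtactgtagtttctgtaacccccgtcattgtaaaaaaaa
Galc: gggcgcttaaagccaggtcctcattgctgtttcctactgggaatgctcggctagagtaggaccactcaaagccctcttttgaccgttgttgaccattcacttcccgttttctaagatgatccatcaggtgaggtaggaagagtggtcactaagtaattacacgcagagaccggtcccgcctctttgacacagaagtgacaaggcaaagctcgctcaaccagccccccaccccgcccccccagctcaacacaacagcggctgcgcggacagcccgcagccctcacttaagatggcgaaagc
Arsb: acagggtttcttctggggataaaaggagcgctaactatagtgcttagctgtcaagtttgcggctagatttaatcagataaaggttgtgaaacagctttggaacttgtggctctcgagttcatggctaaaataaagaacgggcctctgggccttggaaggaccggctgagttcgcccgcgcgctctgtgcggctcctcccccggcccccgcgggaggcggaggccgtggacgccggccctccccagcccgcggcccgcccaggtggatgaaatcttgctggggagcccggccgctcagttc
The *Lamp1* window holds 4 E-boxes, that of *Gla* 2, that of *Atp6v1a* 1, and those of *Galc* and *Arsb* 0. Thus the member with the largest fall and the member with the largest rise both lack these letters in this window.

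The E-box reads the same on both strands, and its extended form TCACGTGA, which contains it, does too. A window was found for 45 of the 53 members, and 13 of these (28.9%) held CACGTG in at least 1 window, against 1483 of the 15613 measured genes with a window (9.5%). The extended form stood in 6 members (13.3%), against 238 measured genes (1.52%). Members called lower in R3 in at least 1 comparison held CACGTG in 6 of 19 windows (31.6%), members called higher in 0 of 5, and members called in no comparison in 7 of 21 (33.3%). For TCACGTGA these were 4 of 19 (21.1%), 0 of 5, and 2 of 21 (9.52%), counts too small to read an order from, and no test was made. A match is a description of the letters and does not show that a factor binds there. The E-boxes of *Atp6v0d1* (chr8:105566052-105566077, minus strand), *Sgsh* (chr11:119355524-119355549, minus strand), and *Cln3* (chr7:126583342-126583395, minus strand, at the second of its annotated starts), all called lower, are shown beside that of *Mcoln1* (chr8:3500438-3500489, plus strand), which was not called, each with 10 bases on either side.
Atp6v0d1: ctactgcggtCACGTGagacgcggtg
Sgsh: gcctgccgtgCACGTGaccgtgggga
Cln3: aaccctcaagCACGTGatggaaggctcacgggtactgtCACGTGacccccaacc
Mcoln1: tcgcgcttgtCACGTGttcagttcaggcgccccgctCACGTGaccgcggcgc
*Atp6v1b2*, *Atp6v1c1*, *Atp6v1g1*, *Atp6v1h*, *Atp6v0a2*, *Atp6v0d2*, *Asah1*, and *Galns* were not matched to a window.

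**Figure D2:**
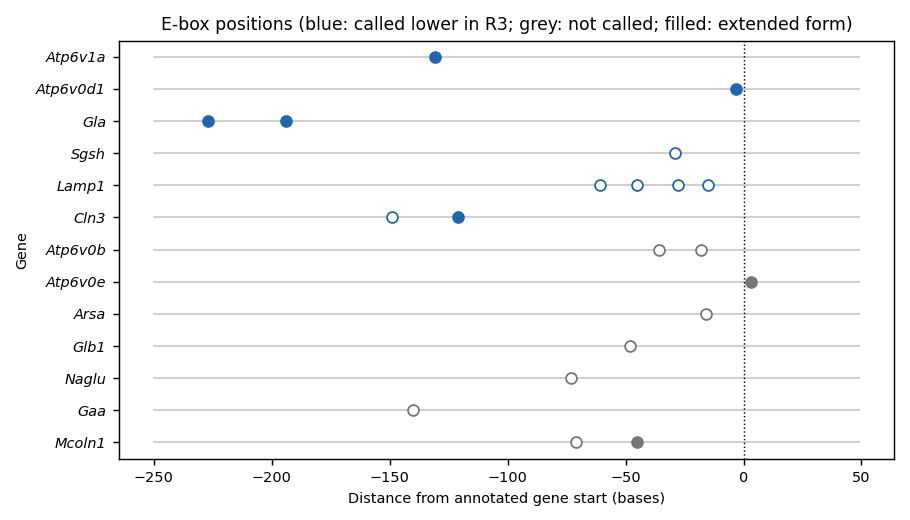
Position of each CACGTG (circles) relative to the annotated gene start (dotted line, in bases) in the 13 members that hold one, with the window as a grey line. Filled circles are TCACGTGA, blue marks the 6 members called lower in R3 and grey the 7 not called. The 4 E-boxes of *Lamp1* start between positions -61 and -15.

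Of the 13 V1 sector subunit genes of the V-ATPase, 4 were called lower in R3 than in R2 (30.8%) and 7 lower than in R1 (53.8%). None was called higher. Of all genes, 4.69% were called lower and 4.85% higher against R2, and 7.02% lower and 6.49% higher against R1. These shares stand beside the counts of each role below. *Atp6v1b2*, the B subunit isoform of most cells, had log2 intensities of 9.996, 9.89, and 10.07 in R3, 11.28, 11.29, and 11.29 in R2, and 11.53, 11.54, and 11.56 in R1. The R3 arrays lay within 0.18 of each other, and R3, R2, and R1 did not overlap at any boundary. The log2 fold change was -1.30 ± 0.07 (adjusted p = 3.76e-06) in R3 against R2 and -1.56 ± 0.07 (adjusted p = 8.59e-07) in R3 against R1, where ± is the standard error of the limma fit and p is adjusted. This is 2.46-fold and 2.95-fold lower, and it was the smallest adjusted p among the members in both comparisons. Within the 3 dates, the log2 difference of R3 from R2 was -1.28, -1.40, and -1.22.

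*Atp6v1a*, the catalytic subunit paired with the B subunit in the head of the pump, showed the same order of populations in its means. Its log2 intensities were 9.08, 8.62, and 9.05 in R3, 9.90, 9.90, and 9.98 in R2, and 9.90, 10.10, and 10.41 in R1. All R3 arrays were below all others, with R3 replicate 2 the lowest, while R2 and R1 overlapped. The log2 fold change was -1.01 ± 0.15 (adjusted p = 0.00247) against R2 and -1.22 ± 0.15 (adjusted p = 0.000615) against R1. *Atp6v1e1*, a stalk subunit, was nearly equal in the R3 arrays. It had 9.88, 9.89, and 9.87 in R3, 10.52, 10.55, and 10.67 in R2, and 10.52, 10.92, and 10.79 in R1, and R3 was separate from both. Its log2 fold changes were -0.70 ± 0.10 (adjusted p = 0.00214) against R2 and -0.86 ± 0.10 (adjusted p = 0.000467) against R1.

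*Atp6v1h*, the subunit that regulates the coupling of the sectors, was called against R1 alone. It measured 8.55, 8.19, and 7.998 in R3, 8.78, 8.68, and 8.79 in R2, and 8.68, 8.9998, and 9.37 in R1. R3 lay below both populations on every array, with R3 replicate 1 only 0.13 below the lowest R2 array. The log2 fold change was -0.77 ± 0.18 (adjusted p = 0.0208) against R1 and -0.51 ± 0.18 (adjusted p = 0.145) against R2. *Atp6v1c1*, the stalk subunit C, was called lower against both, with -0.59 ± 0.14 (adjusted p = 0.0304) in R3 against R2 and -0.68 ± 0.14 (adjusted p = 0.0118) against R1. *Atp6v1f*, a rotor subunit, and *Atp6v1g2*, the stalk isoform best known from brain, were called against R1 alone, at -0.42 ± 0.09 (adjusted p = 0.0158) and -0.34 ± 0.10 (adjusted p = 0.0489). The call of *Atp6v1g2* was lost with the date as a block (adjusted p = 0.0899) and held in 3 of 21 alternatives. A second probe set of *Atp6v1f*, with means of 7.85 in R3, 8.02 in R2, and 7.95 in R1, showed less of a difference, and with the mean of both probe sets the call against R1 was lost.

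Other V1 subunits were not called. *Atp6v1d*, the rotor shaft, had a log2 fold change of 0.17 ± 0.08 (adjusted p = 0.332) in R3 against R2, and *Atp6v1g1*, the general stalk isoform, 0.20 ± 0.08 (adjusted p = 0.134) against R1. Both had their R3 mean above the other, unlike the called subunits. Some subunits have a paralogue isoform known from kidney, testis, lung, or other restricted sites. *Atp6v1b1*, the paralogue of *Atp6v1b2*, measured 5.47, 5.25, and 5.46 in R3, 5.55, 5.39, and 5.40 in R2, and 5.40, 5.36, and 5.40 in R1. *Atp6v1e2*, the paralogue of *Atp6v1e1*, measured 5.19, 5.03, and 5.30 in R3, 5.19, 5.27, and 5.19 in R2, and 5.12, 5.32, and 5.09 in R1. For both the 3 populations overlapped, unlike for *Atp6v1b2* and *Atp6v1e1*. *Atp6v1c2*, *Atp6v1g3*, *Atp6v0a4*, and *Atp6v0d2* were not called either. The group of these 6 restricted isoforms had log2 fold changes between -0.09 and 0.02 in R3 against R2 and between -0.05 and 0.01 against R1. *Atp6v1g2*, the brain isoform, was not put in this group and lay outside these ranges, at -0.25 against R2 and -0.34 against R1. Whether the signals of the 6 exceed the background of the arrays was not tested. *Atp6v0d2*, found in osteoclasts and kidney, had means of 3.63 in R3, 3.61 in R2, and 3.66 in R1, and it is the 1 member whose deposited value is the same in all arrays of a population (R2).

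**Figure D3:**
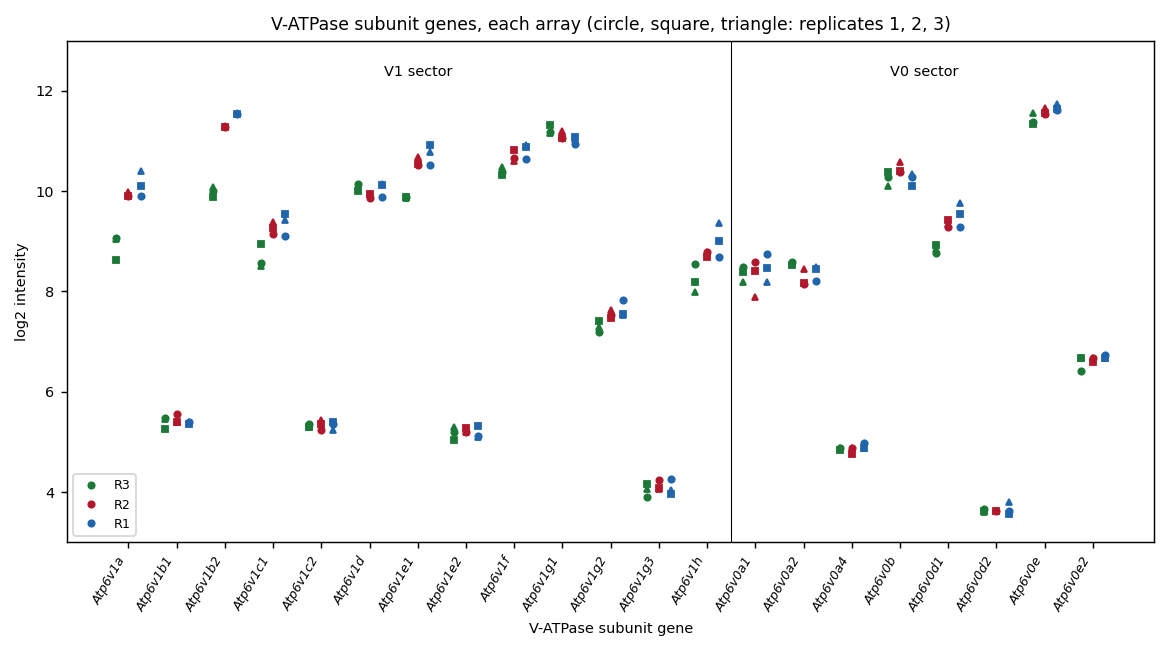
Log2 intensity of the 21 V-ATPase subunit genes on each array, with R3 in green, R2 in red, and R1 in blue from left to right within a gene, and the V1 sector left of the line. Marker shapes are replicates 1 to 3. Green points lie below red and blue for *Atp6v1a*, *Atp6v1b2*, *Atp6v1e1*, and *Atp6v0d1*, whereas the colours overlap for isoforms such as *Atp6v1b1*. Levels of different genes come from different probe sets and are not comparable.

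In the V0 sector 1 of the 8 genes with an *Atp6v* symbol was called. *Atp6v0d1*, which links the rotor to the membrane ring, was lower in R3, with means of 8.85 ± 0.07 in R3, 9.35 ± 0.06 in R2, and 9.53 ± 0.24 in R1 (SD, n = 3 each). Its log2 fold change was -0.50 ± 0.11 (adjusted p = 0.0218) against R2 and -0.68 ± 0.11 (adjusted p = 0.00318) against R1. *Atp6v0a1*, *Atp6v0a2*, *Atp6v0b*, *Atp6v0e*, and *Atp6v0e2* were not called. *Atp6v0a2*, an isoform of the subunit that forms the proton path, had all R3 arrays (8.52 to 8.60) above all R2 arrays (8.16 to 8.45) and above all R1 arrays (8.22 to 8.50), at 0.30 ± 0.10 (adjusted p = 0.12) and 0.17 ± 0.10 (adjusted p = 0.365). Its second probe set had means of 7.72 in R3, 7.85 in R2, and 7.93 in R1, which is opposite in order.

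Genes of sphingolipid breakdown went in both directions. *Galc*, galactosylceramidase, which removes galactose from galactosylceramide, had the largest change of all 53. Its log2 intensities were 5.68, 5.74, and 5.93 in R3, 7.86, 7.97, and 7.56 in R2, and 7.56, 8.07, and 7.96 in R1. The highest R3 array was 1.63 below the lowest array of the other populations, which overlapped each other. The log2 fold change was -2.02 ± 0.15 (adjusted p = 3.69e-05) in R3 against R2, 4.05-fold lower, and -2.08 ± 0.15 (adjusted p = 2.14e-05) in R3 against R1, 4.24-fold lower. Its R3 values lay near the medians of all probe sets on these arrays (5.95, 5.99, and 5.91). Whether they exceed the background of the arrays was not tested, so the size of the fold change is uncertain. Within the dates, R3 minus R2 was -2.18, -2.24, and -1.63, and R3 minus R1 was -1.88, -2.33, and -2.03.

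*Gla*, alpha-galactosidase A, which removes galactose from globotriaosylceramide, spread more within R3. It had 7.06, 7.78, and 7.47 in R3, 8.56, 8.47, and 8.74 in R2, and 8.41, 8.35, and 8.92 in R1, with R3 replicate 1 the lowest and no overlap between R3 and the others. In limma, the log2 fold change was -1.15 ± 0.20 (adjusted p = 0.00547) against R2 and -1.12 ± 0.20 (adjusted p = 0.00486) against R1. *Gm2a*, the GM2 activator protein, which presents ganglioside to hexosaminidase A, was higher in R3. It measured 12.44, 12.36, and 12.51 in R3, 11.73, 11.83, and 11.64 in R2, and 11.88, 11.95, and 11.94 in R1. All R3 arrays were above all others, and the R2 arrays were all below the R1 arrays. R3 differed by a log2 fold change of 0.70 ± 0.07 (adjusted p = 0.000259) against R2 and 0.51 ± 0.07 (adjusted p = 0.00138) against R1. *Hexa*, the alpha chain of the enzyme that GM2 activator serves, was not called, at -0.16 ± 0.12 (adjusted p = 0.594) and -0.22 ± 0.12 (adjusted p = 0.335).

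*Smpd1*, acid sphingomyelinase, was higher in R3 as well. It measured 9.31, 8.99, and 8.66 in R3, 8.30, 8.05, and 8.10 in R2, and 7.79, 8.32, and 8.15 in R1. R3 replicate 1 was the highest and R3 replicate 3 the lowest of its population, and none overlapped R2 or R1. On the log2 scale the difference was 0.83 ± 0.18 (adjusted p = 0.0173) against R2 and 0.90 ± 0.18 (adjusted p = 0.00912) against R1. *Arsa* (arylsulfatase A), *Asah1* (acid ceramidase), *Psap* (prosaposin, the precursor of the saposin activators), and *Glb1* (beta-galactosidase) were not called. *Psap* was nearest, at -0.21 ± 0.06 (adjusted p = 0.0636) against R1, and its R3, R2, and R1 arrays did not overlap. In all, 2 of the 9 genes of sphingolipid breakdown were called higher and 2 lower in both comparisons.

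In glycosaminoglycan breakdown, 3 of 6 genes were called lower (50%) and 1 higher (16.7%) in both comparisons. The sulfatases *Galns* and *Arsb*, which remove sulfate from N-acetylgalactosamine at different positions, moved in opposite directions. *Galns* had 7.70, 8.10, and 8.24 in R3, 9.38, 9.27, and 9.26 in R2, and 9.21, 9.47, and 9.31 in R1. R3 was below all other arrays, with R3 replicate 1 the lowest. Fitted log2 fold changes were -1.29 ± 0.13 (adjusted p = 0.000261) against R2 and -1.32 ± 0.13 (adjusted p = 0.000187) against R1. *Arsb* had 11.34, 11.32, and 11.14 in R3, 10.38, 10.31, and 9.77 in R2, and 9.79, 10.08, and 9.77 in R1, with R3 above all other arrays and R2 overlapping R1. Its log2 fold change was 1.11 ± 0.16 (adjusted p = 0.00201) against R2 (2.16-fold higher) and 1.38 ± 0.16 (adjusted p = 0.000406) against R1 (2.61-fold higher). A second probe set of *Arsb* had means of 11.08 in R3, 9.77 in R2, and 9.73 in R1, in the same direction.

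*Sgsh*, the sulfamidase of heparan sulfate, stepped down over the populations. It measured 7.07, 6.81, and 7.24 in R3, 7.83, 7.70, and 7.62 in R2, and 7.88, 8.42, and 8.18 in R1. No R3 array reached R2 and no R2 array reached R1. This gave a log2 fold change of -0.67 ± 0.15 (adjusted p = 0.0211) against R2 and -1.12 ± 0.15 (adjusted p = 0.000998) against R1, and for R2 against R1 it was -0.45 ± 0.15 (adjusted p = 0.296), which was not called. *Gusb*, beta-glucuronidase, measured 8.50, 8.75, and 8.82 in R3, 9.37, 9.33, and 9.45 in R2, and 9.17, 9.46, and 9.70 in R1. R3 was below both, while R1 spread on both sides of R2. In limma, the log2 fold change was -0.69 ± 0.13 (adjusted p = 0.0101) against R2 and -0.75 ± 0.13 (adjusted p = 0.00513) against R1. *Ids*, iduronate sulfatase, and *Naglu*, alpha-N-acetylglucosaminidase, which act on the same heparan sulfate chains as *Sgsh*, were not called.

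**Figure D4:**
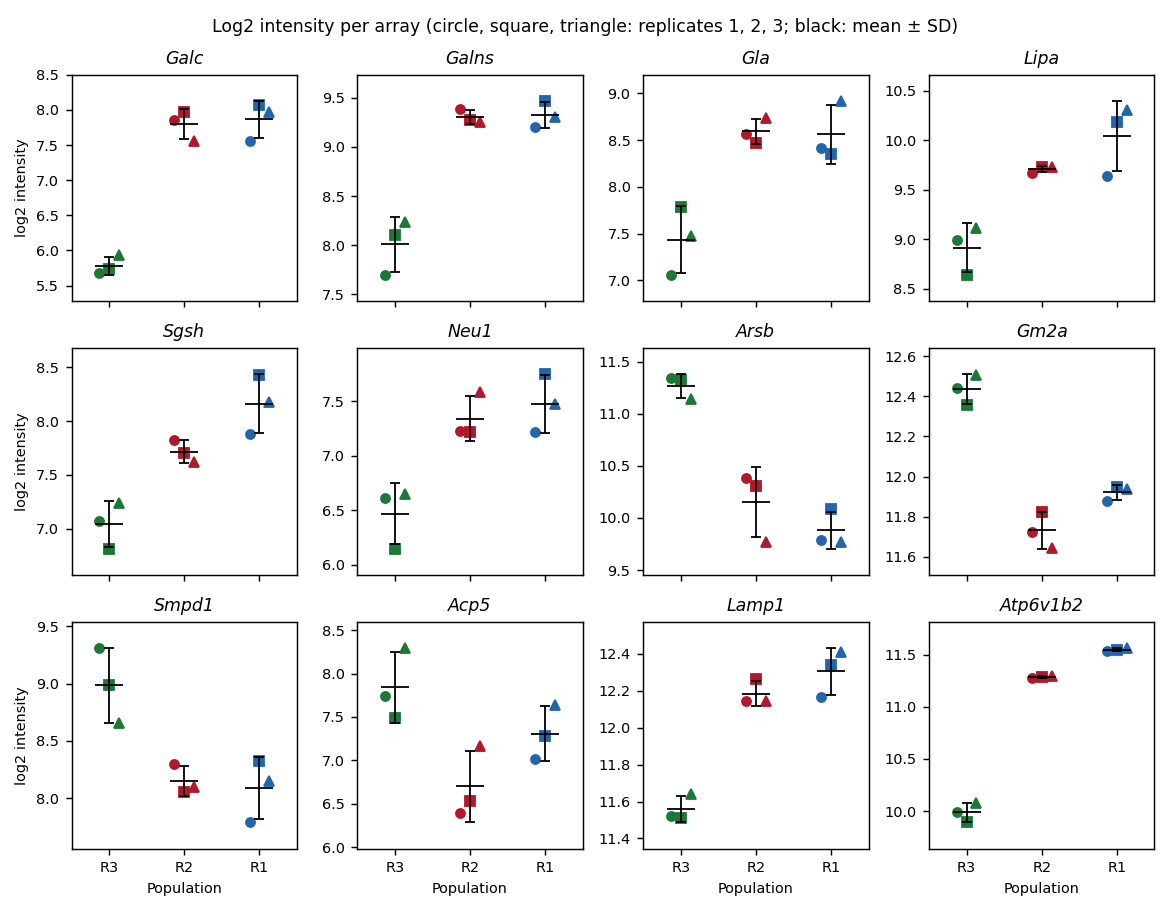
Log2 intensity of 12 members in R3 (green), R2 (red), and R1 (blue), with a circle, a square, and a triangle for replicates 1, 2, and 3 and the mean ± SD in black. Each panel has its own vertical axis, which does not start at 0. R3 lies apart from both other populations in all panels but *Acp5*, where R3 replicate 2 (7.49) is below the highest R1 array (7.63).

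Among the enzymes of glycoprotein and glycogen breakdown, 2 of 5 were called, both lower. *Neu1*, the lysosomal sialidase, had 6.61, 6.15, and 6.65 in R3, 7.23, 7.21, and 7.58 in R2, and 7.21, 7.74, and 7.47 in R1. R3 replicate 2 was the lowest array, and R3 did not overlap the others. Its log2 fold change was -0.87 ± 0.18 (adjusted p = 0.013) against R2 and -1.01 ± 0.18 (adjusted p = 0.00459) against R1. *Fuca1*, alpha-fucosidase, had 9.51, 9.54, and 9.60 in R3, 9.99, 10.06, and 9.85 in R2, and 10.30, 10.20, and 10.27 in R1. As in *Sgsh*, the populations did not overlap and R2 lay between. R3 differed by a log2 fold change of -0.42 ± 0.07 (adjusted p = 0.00561) against R2 and -0.71 ± 0.07 (adjusted p = 0.000193) against R1. In R2 against R1 it was -0.29 ± 0.07 (adjusted p = 0.163), not called. *Man2b1* and *Manba*, the lysosomal mannosidases, and *Gaa*, which releases glucose from glycogen, were not called, and their log2 fold changes in R3 lay between 0.05 and 0.10 against R2 and between -0.19 and -0.09 against R1.

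Of the 6 lipase, protease, and phosphatase genes, 4 were called lower in R3 than in R2 (66.7%, against 4.69% of all genes). Against R1, 5 of 6 were called lower (83.3%, against 7.02% of all genes). The roles hold few genes, so their shares are not ranked. *Lipa*, lysosomal acid lipase, which hydrolyses cholesteryl esters and triglycerides, had 8.99, 8.64, and 9.12 in R3, 9.67, 9.73, and 9.73 in R2, and 9.64, 10.18, and 10.31 in R1. R3 was below all other arrays, and R1 replicate 1 was below the R2 arrays while the other R1 arrays were above them. On the log2 scale the difference was -0.79 ± 0.18 (adjusted p = 0.0202) against R2 and -1.13 ± 0.18 (adjusted p = 0.00234) against R1. *Pla2g15*, a lysosomal phospholipase, had 7.18, 6.85, and 7.43 in R3, 7.93, 7.70, and 7.88 in R2, and 8.01, 7.70, and 8.20 in R1, again with R3 separate, at -0.68 ± 0.16 (adjusted p = 0.0299) and -0.81 ± 0.16 (adjusted p = 0.00975).

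*Tpp1*, tripeptidyl peptidase, measured 8.53, 8.50, and 8.59 in R3, 8.97, 8.97, and 9.06 in R2, and 8.98, 9.37, and 9.44 in R1. The R3 arrays lay within 0.09 of each other and below all others. Its log2 fold change was -0.46 ± 0.11 (adjusted p = 0.0327) against R2 and -0.72 ± 0.11 (adjusted p = 0.00232) against R1. *Ppt1*, which removes palmitate from proteins, had -0.48 ± 0.10 (adjusted p = 0.0155) against R2 and -0.69 ± 0.10 (adjusted p = 0.00151) against R1.

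Of the acid phosphatases, *Acp2* was called lower in R3 against R1, and *Acp5* was called higher in R3 against R2. *Acp2*, the general lysosomal form, measured 6.72, 7.19, and 7.41 in R3, 7.75, 7.82, and 7.66 in R2, and 7.47, 7.98, and 8.12 in R1. R3 was below both populations, though R3 replicate 3 was only 0.06 below R1 replicate 1. Its log2 fold change was -0.75 ± 0.20 (adjusted p = 0.0346) against R1, and against R2 it was -0.64 ± 0.20 (adjusted p = 0.0875), which passed with the date as a block (adjusted p = 0.0382). *Acp5*, the tartrate-resistant form known from osteoclasts and some macrophages and DCs, measured 7.74, 7.49, and 8.29 in R3, 6.40, 6.53, and 7.17 in R2, and 7.01, 7.28, and 7.63 in R1. Replicate 3 was the highest array in every population, R3 was above R2 throughout, and R3 overlapped R1. Fitted log2 fold changes were 1.14 ± 0.26 (adjusted p = 0.0233) against R2 and 0.53 ± 0.26 (adjusted p = 0.259) against R1, and with the date as a block the R1 comparison passed (adjusted p = 0.0194). None of 6 osteoclast markers, *Ctsk* and *Calcr* among them, was called in any comparison, with summed linear levels of 189.0 to 224.1 in R3, 197.5 to 213.2 in R2, and 211.4 to 218.7 in R1.

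Of the lysosomal membrane genes, 3 of 6 were called lower in both comparisons (50%, against 4.69% and 7.02% of all genes). *Lamp1*, a main glycoprotein of the lysosomal membrane, had 11.52, 11.51, and 11.64 in R3, 12.15, 12.26, and 12.15 in R2, and 12.17, 12.34, and 12.41 in R1. The R3 arrays were below all others. This gave a log2 fold change of -0.63 ± 0.08 (adjusted p = 0.00111) against R2 and -0.75 ± 0.08 (adjusted p = 0.000301) against R1. Its relative *Lamp2*, which also serves chaperone-mediated autophagy, had -0.54 ± 0.10 (adjusted p = 0.00621) and -0.63 ± 0.10 (adjusted p = 0.00201). *Cln3*, a membrane protein mutated in juvenile Batten disease, had -0.36 ± 0.07 (adjusted p = 0.00779) and -0.47 ± 0.07 (adjusted p = 0.00144). *Laptm5*, a membrane protein of blood cells, was called higher against R2, at 0.27 ± 0.07 (adjusted p = 0.038), and not against R1, at 0.17 ± 0.07 (adjusted p = 0.16). With the date as a block the call against R2 was lost (adjusted p = 0.0634). *Scarb2*, the receptor that brings beta-glucocerebrosidase to lysosomes, and *Mcoln1*, the lysosomal cation channel, were not called.

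**Figure D5:**
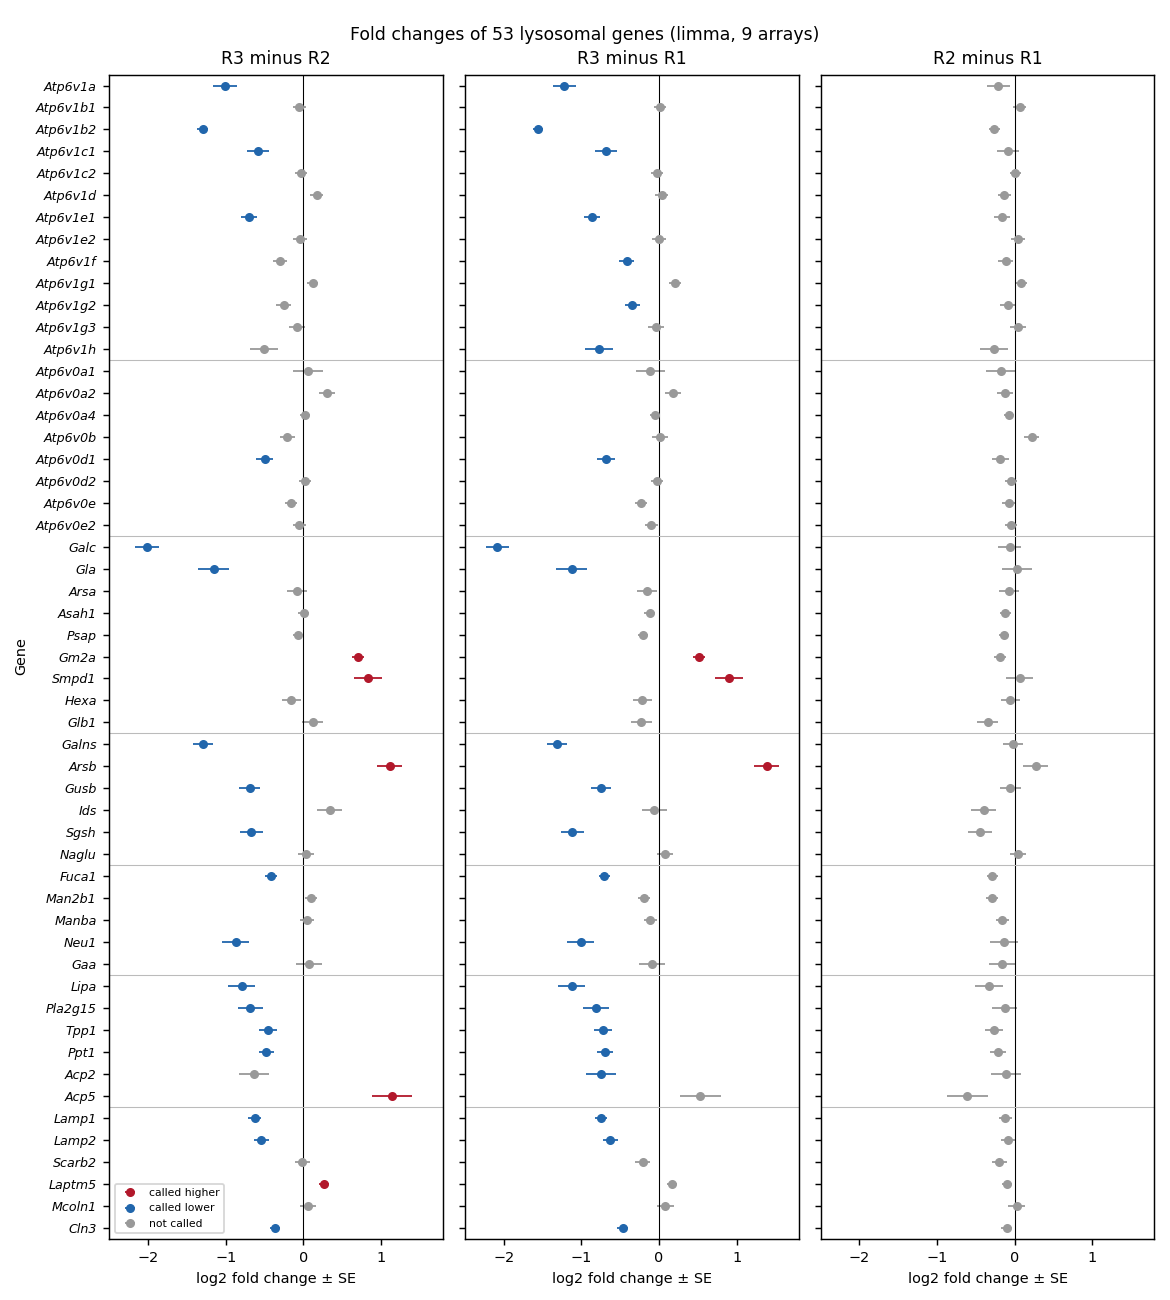
Log2 fold change of each member with its standard error (limma, 9 arrays) for R3 minus R2, R3 minus R1, and R2 minus R1, in the order of the roles, with horizontal lines between roles. Red is called higher, blue called lower, and grey not called. The R2 minus R1 panel is all grey, with values between -0.61 and 0.27.

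Between R2 and R1 no member was called, which does not show that the populations are alike. In R2 the mean was below that of R1 for 42 of 53 members, against 55.7% of all genes, and the median log2 fold change was -0.12, against -0.02 for all genes. The arrays of R2 were all below those of R1 in 9 members (7.99% of all genes) and all above in 1, *Atp6v0b* (5.44%). At an unadjusted p under 0.05, limma gave 9 lower (6.11% of all genes) and 0 higher (4.56%), and the methods' t-test 5 lower (4.58%) and 0 higher (2.88%). The largest difference was that of *Acp5*, at -0.61 ± 0.26 (adjusted p = 0.451). In 4 members, *Atp6v1b2*, *Fuca1*, *Sgsh*, and *Psap*, every R3 array was below every R2 array and every R2 array below every R1 array (2.02% of all genes).

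Regulators of lysosomal genes and further lysosomal genes, taken from lists of names, were compared in the same fit. Their counts of calls stand beside 4.69% of all genes called lower and 4.85% higher in R3 against R2, and 7.02% lower and 6.49% higher against R1. *Tfec*, a member of the TFEB family, had log2 intensities of 5.27, 6.71, and 6.30 in R3, 10.46, 10.36, and 10.43 in R2, and 9.77, 9.87, and 10.07 in R1. The highest R3 array was 3.06 below the lowest array of the other populations. In limma, the log2 fold change was -4.32 ± 0.30 (adjusted p = 2.01e-05) in R3 against R2 and -3.81 ± 0.30 (adjusted p = 3.32e-05) against R1. The R3 values of *Tfec* lay on both sides of the medians of all probe sets on these arrays (5.95, 5.99, and 5.91). Whether they exceed the background was not tested, so the size of the fold change is uncertain. *Tfeb*, *Tfe3*, and *Mitf*, the relatives of *Tfec*, were not called in any comparison. *Sort1*, sortilin, a sorting receptor for some lysosomal proteins, had 8.01, 7.12, and 7.55 in R3, 9.90, 9.96, and 9.84 in R2, and 9.86, 10.16, and 10.09 in R1, at -2.34 ± 0.19 (adjusted p = 6.06e-05) against R2 and -2.48 ± 0.19 (adjusted p = 3.15e-05) against R1. In the list of lysosomal gene transcription and nutrient sensing, 5 of 21 genes were called lower (23.8%) and 0 higher in R3 against R2, and 5 lower (23.8%) and 2 higher (9.52%) against R1. Of 14 measured genes of mannose 6-phosphate tagging and sorting, 1 was lower (7.14%) and 2 higher (14.3%) against R2 and 2 lower and 2 higher (14.3% each) against R1, so single genes make up these shares.

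Assembly, accessory, and related genes of the V-ATPase had 4 of 16 measured called lower (25%) and 1 higher (6.25%) in both comparisons. This list includes *Tcirg1*, a V0 subunit gene without an *Atp6v* symbol. It was not called in any comparison, with means of 10.32 in R3, 10.56 in R2, and 10.37 in R1. *Dmxl2*, a subunit of the complex that reassembles the sectors, had the largest change, at -1.64 ± 0.17 against R2 (adjusted p = 0.00025) and -1.87 ± 0.17 against R1 (adjusted p = 8.75e-05). Its R3 values (5.28, 5.09, and 5.39) lay below the medians of all probe sets on these arrays. Whether they exceed the background was not tested, so the size of this change is uncertain. *Dmxl1*, the paralogue of *Dmxl2*, was higher, at 0.39 ± 0.10 (adjusted p = 0.0344) and 0.52 ± 0.10 (adjusted p = 0.00667). *Wdr7*, the partner of both, and *Ccdc115*, an assembly factor of the V0 sector, were lower in both comparisons, at -0.32 and -0.81 against R2 and -0.39 and -1.07 against R1. *Oxr1* was called lower in both as well, at -1.19 ± 0.11 against R2 and -1.25 ± 0.11 against R1.

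Among 22 measured further hydrolases and activators, 5 were lower (22.7%) and 4 higher (18.2%) in R3 against R2, and 7 lower (31.8%) and 2 higher (9.09%) against R1. *Hgsnat*, the acetyltransferase of heparan sulfate breakdown that works in the same chain of steps as *Sgsh*, fell most, at -1.63 ± 0.11 (adjusted p = 1.52e-05) and -2.08 ± 0.11 (adjusted p = 2.75e-06). *Naaa*, an amidase of N-acylethanolamines, had -1.05 and -1.34, and the peptidase *Scpep1* was higher, at 0.90 and 0.79. *Lgmn*, the asparaginyl endopeptidase, was called higher against R2 alone, at 0.92 ± 0.17 (adjusted p = 0.00778). Of 14 cathepsins, 4 were called lower (28.6%) and 0 higher against R2 and 7 lower and 0 higher against R1, with *Ctsg*, which is stored in primary granules, at -4.45 and -3.70, *Ctsc*, which activates granule proteases, at -1.67 and -1.88, and *Ctsd*, a main aspartic protease of lysosomes, at -1.26 and -1.48. *Elane* and *Mpo*, further primary granule genes, were lower too, at -4.16 and -4.32 against R2 and -3.46 and -3.60 against R1. Of 29 measured genes of lysosomal membrane and transport, 3 were lower (10.3%) and 4 higher (13.8%) against R2 and 8 lower (27.6%) and 4 higher (13.8%) against R1. The lysosomal cation channel gene *Tpcn1* was higher in both, at 1.16 and 0.99. *Mfsd1*, *Cln8*, and *Laptm4a* were lower in both, at -0.75, -0.49, and -0.41 against R2 and -0.81, -0.93, and -0.59 against R1. *Slc15a3*, a lysosomal peptide and histidine transporter, was the 1 gene of these lists called between R2 and R1, lower at -0.52 ± 0.09 (adjusted p = 0.0469).

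The median log2 fold changes of these lists in R3 against R2 and against R1 were -0.20 and -0.28 for transcription and nutrient sensing, -0.03 and -0.10 for tagging and sorting, and -0.18 and -0.17 for assembly factors. They were -0.18 and -0.34 for further hydrolases, -0.13 and -0.39 for cathepsins, and -0.06 and -0.04 for membrane and transport.

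Some calls lay close to the threshold and were lost with 8 arrays, most of them whichever of several arrays was left out. Over the fits of 8 arrays, the log2 fold changes of the calls lost in at least 1 fit moved by at most 0.24 (*Acp5* against R2, 0.92 to 1.38) and kept their sign, with *Tpp1* between -0.48 and -0.43 and *Atp6v0d1* between -0.53 and -0.46 against R2. Of the 24 calls against R2, 13 held without any 1 of the 9 arrays, and of the 26 against R1, 22 held. The R2 calls of *Atp6v1c1*, *Atp6v0d1*, *Smpd1*, *Sgsh*, *Lipa*, *Pla2g15*, *Tpp1*, and *Acp5* were each lost on leaving out any 1 of at least 4 arrays (adjusted p between 0.0516 and 0.123), and every R3 and R2 array was among these. *Neu1* and *Ppt1* were lost without R2 replicate 3 (adjusted p = 0.0598 and 0.0684). *Laptm5* was lost on leaving out any 1 of 6 arrays, R1 replicate 2 among them (adjusted p between 0.0532 and 0.125). Against R1, *Atp6v1f* and *Atp6v1h* were each lost on leaving out any 1 of 4 arrays (adjusted p of at most 0.0601 and 0.0708), *Acp2* any 1 of 7 (at most 0.114), and *Atp6v1g2* any 1 of the 9 (at most 0.158). Calls of *Galc*, *Galns*, *Gm2a*, and *Atp6v1b2* against R2 held in every alternative tried, as did those of *Galc*, *Gm2a*, *Arsb*, *Atp6v1b2*, *Fuca1*, *Lamp1*, and *Cln3* against R1.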

How the data were processed

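The 9 arrays are Affymetrix whole-transcript mouse arrays. For each, 1 ng of RNA from sorted cells went through NuGEN whole-transcriptome amplification and biotin labeling. The authors deposited linear intensities of 34760 probe sets, 1 value for each array, and the methods name GenePattern for analysis. The background correction, summarization, and normalization are not given in the sources used here. Array medians were 58.0 to 64.7, and the number of arrays limits the precision.

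Deposited intensities were put on the log2 scale. Genes were assigned to probe sets by the annotation of the platform (21640 name 1 gene, 1321 several, and 11799 none), 21553 matched the mouse RefSeq table of GRCm38.p6 and 0 symbols were updated, and the probe set with the highest mean was kept per gene, giving 19937 genes. Dim probe sets were kept. Limma (version 3.58.1, R 4.3.3) fitted the 3 populations in 1 model with 6 residual degrees of freedom, eBayes, and Benjamini-Hochberg adjustment over all genes in each comparison. The fit was also run on simulated data with independent noise and no date effect. That run cannot speak to the pairing by date or to the differences among the R3 arrays. Python 3.11.15 with pandas 2.3.3 and matplotlib 3.10.9 did the rest.

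Labels give 1 array of each population per date, so the replicate numbers pair the arrays. Deviations from the population means correlated between -0.02 and 0.15 for the 9 pairs of arrays that share a date and between -0.15 and 0.08 for the other 18. The date as a block was an alternative, beside centring on the median, quantile normalization, array weights, an intensity trend, only the populations compared, the mean of all probe sets, a filter on dim genes, the methods' t-test, and leaving out each array or date. The t-test is the one the methods name, unpaired and applied to the log2 values.

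The members and the lists were chosen with earlier results of these data known. Per-array values are given for the 20 called members with the largest log2 fold change and for paralogue subunits set beside them, and at most 6 called genes per comparison are named from each of the other lists. Outside this rule, per-array values are also given for *Tfec*, *Sort1*, and *Dmxl2*, and for *Ltf* and *Ngp* in R3. *Ltf*, *Ngp*, *Ctsk*, *Calcr*, *Tfeb*, *Tfe3*, *Mitf*, and *Tcirg1* were not called and are named after their values were seen. The motifs were counted in RefSeq windows of 300 bases.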

Additional observations from a re-analysis of the deposited data

How the results depend on the processing

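No call of a member changed sign under any alternative. Against R2, 4 of 24 calls held in every alternative, and against R1 7 of 26. With the methods' t-test, adjusted over all genes, 8 members were called lower and 1 higher in R3 against R2, and 5 lower and 2 higher against R1. Leaving out 1 array gave 11 to 21 lower and 2 to 5 higher against R2, and 19 to 23 lower and 3 higher against R1. Leaving out 1 date gave 5 to 8 lower and 2 to 3 higher against R2, and 13 to 20 lower and 2 to 3 higher against R1. R2 against R1 gave 0 in all of these. Of the alternatives, only the fit without R3 replicate 1 has its adjusted calls set beside shares of all genes here. The counts from the other alternatives are no measure of an excess over all genes. The date as a replicate block gave 20 lower and 4 higher against R2 and 22 lower and 4 higher against R1. It ended the calls of *Laptm5* against R2 and of *Atp6v1g2* against R1, and changed no other call but the gains of *Acp2* against R2 and *Acp5* against R1. With all 9 arrays, centring each on its median ended the calls of *Atp6v1c1*, *Atp6v0d1*, *Sgsh*, *Lipa*, *Pla2g15*, *Tpp1*, and *Laptm5* against R2. It ended no call against R1. The cause of these and the other losses was not tested. Some of the settings use fewer arrays or a separate spread per gene by construction. With 3 arrays a population, a difference that was not called is not shown to be absent.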
